A study of Triticum aestivum with 122 samples.

Results

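The comparison described here is that of wheat heads grown from seed germinated with epibrassinolide (EBR) against heads from seed germinated with dimethyl sulfoxide (DMSO, the control), after 16 h at 29 °C. Its members are 14 of the 122 samples of the series, chosen by their labels: 3 EBR and 4 DMSO plants, each with a floret library and a library of the rachis, the axis that bears the spikelets. All 14 come from bread wheat (Triticum aestivum) cultivar Vida. Seed took up water with 1 µM EBR or 1 µM DMSO for 48 h, and plants then grew at 22 °C with a 16 h day until the tetrad stage, when part of the pots went to continuous 29 °C. The same 2 seed treatments at 22 °C and 16 h (DMSO 4 florets and 4 rachises, EBR 4 florets and 3 rachises) and at 29 °C at 8 and 24 h (4 libraries in each group) are set beside it. The labels call the replicates of a group biological replicates, and pots stood in randomized blocks. The agent was given to the seed only, so the heads were sampled long after that exposure.

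Brassinosteroids are steroid hormones of plants. They bind a receptor kinase at the cell surface, and the signal passes through a kinase cascade to transcription factors that drive cell growth and restrain the hormone's own synthesis. EBR is an active brassinosteroid that is often given to seeds or leaves in work on stress tolerance. In cereals the tetrad stage, when the products of meiosis in the anther have not yet separated, is known for its sensitivity to heat.

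Transcripts were measured by sequencing of poly(A) libraries. Depth, as whole reads summed over genes, was 14.8 to 19.7 M in the 7 floret libraries and 11.6 to 18.2 M in the 7 rachis libraries, and the highest of these rachis libraries was the deepest of all 60. Chi-square per gene between replicates was at least 3.39 in all 18 pairs compared, well above sampling noise. As read here, the table covers chromosomes 1 to 5, and chromosomes 6 and 7 were not analysed here. None of its gene IDs (0 matched) is paired with a name or function in the files or in the reference gene table, so genes are given by ID, where the digit and letter after "CS" name the chromosome, and no pathway, heat shock or hormone gene can be pointed out. Cell types and tissue markers cannot be named for the same reason. By the genes that differ between tissues elsewhere in the series, all 14 libraries sided with their labelled tissue: the 7 floret libraries scored 1.82 to 2.57 and the 7 rachis libraries -0.63 to 0.14. Of 59 plants with both tissues, 3 in other groups went against their labels, and 1 of them, EBR seed at 22 °C and 16 h, replicate 3, enters the comparison with 22 °C. In bulk tissue, fewer cells of a type and less RNA per cell cannot be told apart.

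A single plant stood apart before any test. EBR replicate 3 had 3725 of 38320 floret genes at least 2-fold above every other library of its group, while the other 6 floret libraries had 123 to 548. In the rachis of the same plant the number was 2897 of 38883 genes, against 178 to 642 in the other 6 rachis libraries. When every library was thinned to 10.6 M reads, its floret had 44227 genes above 0 and its rachis 43998, and all other libraries of the comparison had between 41303 and 42611. Counts, medians and correlations that rest on this plant are therefore also given without it.

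In the floret, 47 of 38320 genes tested differed between EBR and DMSO heads at an adjusted p under 0.05, which is 0.123% of the genes. Of these, 42 (0.11% of genes) were lower and 5 (0.013%) were higher in EBR heads, and 46 differed by at least 2-fold. In all 47 the 3 EBR libraries did not overlap the 4 DMSO libraries. Gaps of this kind were common among all genes, with 3972 genes for which every EBR library was above every DMSO library and 3202 for the reverse, together 18.7%. An unadjusted p under 0.05 was found for 8019 genes, 20.9% of those tested, where 5% would be expected by chance. Leaving out EBR replicate 3, this share was 4.04% (1546 genes), below that level, and 36 genes were called, all of them lower, while leaving out EBR replicate 1 gave 466 calls and leaving out EBR replicate 2 gave 302. On the whole reads, edgeR called 779 genes (671 higher and 108 lower), among them all 47, and 30 genes, all lower, without EBR replicate 3.

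By the naming rule (given with the processing), the strongest decreases were in 2 genes of chromosome 1A. TraesCS1A03G0001400.1 had 416, 327, 909 and 346 normalized counts in the 4 DMSO florets and 10.2, 13.4 and 9.73 in the 3 EBR florets. The groups were far apart, and the third DMSO floret was the highest. The log2 difference was -5.25 (SE 0.66, adjusted p = 1.61e-06, limma). In the rachis the same gene was low with either seed treatment, at 10.6, 6.38, 23.3 and 17.1 after DMSO and 10.3, 19.0 and 11.3 after EBR, and these groups overlapped.

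TraesCS1A03G0000200.1 had 175, 174, 380 and 158 normalized counts in DMSO florets and 5.10, 3.57 and 5.31 in EBR florets. Every EBR floret was below every DMSO floret, and the log2 difference was -5.21 (SE 0.62, adjusted p = 1.45e-06, limma). Its rachis values ran from 7.405 to 14.96 after DMSO and from 6.76 to 11.4 after EBR, above every EBR floret and below every DMSO floret.

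Both genes belong to a set that rises and falls together across floret libraries. The set was defined as the genes whose Pearson correlation with the mean of TraesCS1A03G0002800.1 and TraesCS1A03G0001400.1 was above 0.8, over the 54 floret libraries outside this comparison. It holds 42 genes: 17 on chromosome 1A, 8 on 1B, 4 each on 4A and 5D, 3 on 5A, 2 each on 3B and 4D, and 1 each on 1D and 2D. Of the 42 lower calls in the floret, 38 were in this set, and the other 4 of its 42 members were not called. The called share was 90.5% of the set, beside 0.11% of all floret genes called lower. All 42 members passed the filter on low values in the floret. In 41 of them every EBR floret was below every DMSO floret, as in 3202 of all 38320 floret genes tested. The median log2 difference was -4.43, beside 0.03 over all floret genes tested, or -4.35 and 0.008 without EBR replicate 3. Called members ranged from -2.33 to -5.25. Mean levels of single members ran from 14.5 to 3012 normalized counts in DMSO florets (median 119) and from 0.28 to 108 in EBR florets (median 5.69).

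As a mean of log2 values over its 42 genes, the set stood at 6.85 ± 0.58 (SD, n = 4) in DMSO florets and 2.73 ± 0.20 (SD, n = 3) in EBR florets. The rachis means were 3.03 ± 0.49 (SD, n = 4) and 2.87 ± 0.38 (SD, n = 3), so the EBR florets were at the level of the rachis. None of the 39 members tested in the rachis was called there, in a comparison with 0% of all genes called.

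The level of the set did not keep 1 sign of EBR minus DMSO over the study's conditions. The difference in florets was 3.04 at 22 °C and 0 h, 0.24 at 8 h, -3.08 at 16 h and 0.14 at 24 h. For the pots assigned to 29 °C it was 3.44 at 0 h, before they were moved, then -1.25 at 8 h, -4.12 at 16 h and 3.76 at 24 h. High and low levels lined up in part with the number in the library names, where every number from 1 to 16 goes with just 1 seed treatment, temperature and sampling time. Florets with numbers from 10 up had 4.62 to 7.68 (27 libraries) and those with numbers up to 9 had 2.44 to 5.86 (34 libraries), so the ranges overlapped in part. Rachises had 2.42 to 3.64 with the higher numbers and 2.32 to 7.20 with the lower ones. The cut between 9 and 10 was not among the planned comparisons, so these ranges are a description. The DMSO heads described here carry number 13 and the EBR heads number 9. The labels do not say what these numbers stand for, and the number and the condition cannot be told apart.

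**Figure D1:**
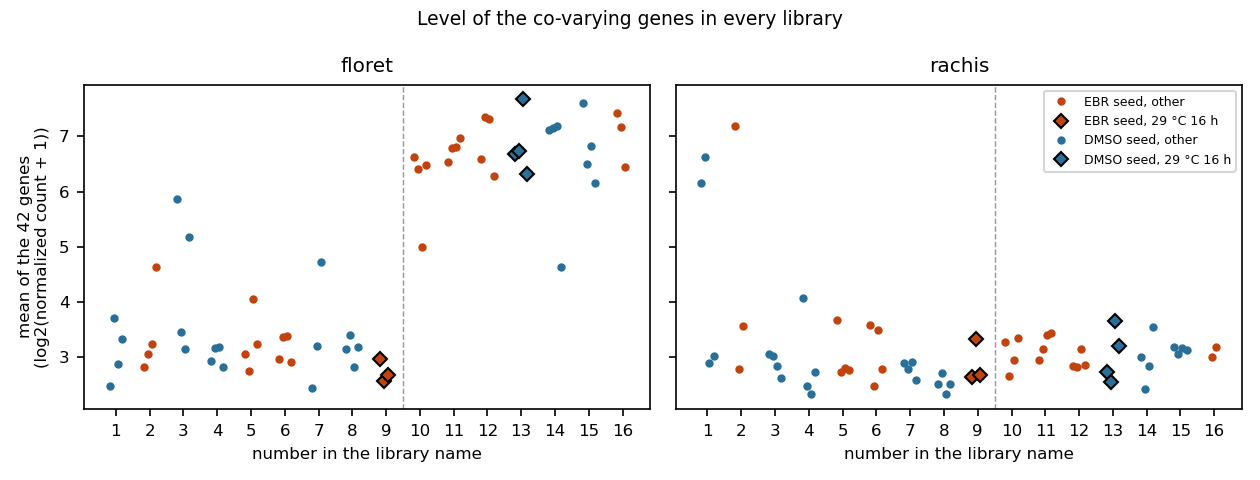
Mean of log2(normalized count + 1) over the 42 co-varying genes (vertical axis) for each library, placed by the number in its name (horizontal axis), in floret (left) and rachis (right); circles are other groups and outlined diamonds the 29 °C, 16 h libraries. Florets numbered from 10 up lie between 4.62 and 7.68, and the 3 EBR florets of 29 °C and 16 h, number 9, lie between 2.56 and 2.96.

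Outside this set, 5 genes were higher and 4 lower in EBR florets. By the naming rule, 2 of the higher genes are described first. TraesCS3B03G1510300.1 had 34.1, 35.98, 17.8 and 22.7 normalized counts in DMSO florets and 106, 108 and 104 in EBR florets. The 3 EBR values were nearly equal and at least 2-fold above the highest DMSO value, and the log2 difference was 1.95 (SE 0.43, adjusted p = 0.0327, limma). In the rachis it had 93.1, 89.3, 109 and 71.3 after DMSO and 150, 151 and 216 after EBR, without overlap, and was not called there (log2 difference 0.92, SE 0.47, adjusted p = 0.422). Without EBR replicate 3 the floret call ended.

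TraesCS5A03G0138100.1 had 75.8, 72.8, 75.2 and 49.3 normalized counts in DMSO florets and 164, 136 and 429 in EBR florets, the last in replicate 3. All EBR florets lay above all DMSO florets, with a log2 difference of 1.64 (SE 0.36, adjusted p = 0.0246, limma). This call also ended without EBR replicate 3, and without any 1 of DMSO replicates 2, 3 and 4 (lost in 9 of 21 alternative settings). Rachis values were 138, 135, 161 and 65.6 after DMSO and 202, 176 and 495 after EBR, again highest in that plant (log2 difference 1.13, SE 0.51, adjusted p = 0.365).

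The remaining 7 were named after their values were seen. TraesCS2D03G0724100.1 was close to silent in DMSO florets, at 1.67, 0, 9.40 and 6.26 normalized counts, and stood at 112, 107 and 1237 in EBR florets (log2 difference 6.04, SE 1.27, adjusted p = 0.0173). Its rachis values of 6.35, 4.55, 2.49 and 9.501 after DMSO and 136, 55.1 and 396 after EBR did not overlap either. TraesCS1D03G0709600.1 had 0 to 2.50 in DMSO florets and 11.9, 12.5 and 67.2 in EBR florets (log2 difference 3.80, SE 0.82, adjusted p = 0.0224). Replicate 3 was the highest EBR floret for both genes.

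TraesCS3A03G0758900.1 had 0 reads in all 4 DMSO florets and 2.55, 1.79 and 97.3 normalized counts in the EBR florets. With 3 reads over the 4 DMSO libraries as the limit, its pooled EBR level was at least 51.5-fold higher, but 110 of its 115 EBR reads were from replicate 3. The calls of TraesCS2D03G0724100.1, TraesCS1D03G0709600.1 and TraesCS3A03G0758900.1 all ended without that plant. Each of them also ended without DMSO replicate 2.

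Of the 4 lower genes outside the set, TraesCS4B03G0484900.1 had 6.66, 8.57, 11.5 and 10.2 normalized counts in DMSO florets and 0 reads in the 3 EBR florets (adjusted p = 0.00051, limma). With 3 reads over the 3 EBR libraries as the limit, the pooled DMSO level was at least 10.4-fold higher. This gene was still called when EBR replicate 3 was left out, and it was the only floret call when the co-varying set was left out of the genes tested. Its rachis values overlapped, at 12.7, 0.91, 0 and 1.90 after DMSO and 1.29, 1.90 and 0 after EBR. Its correlation with the set over the 54 other floret libraries was 0.35.

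TraesCS5A03G0991900.1 was the most abundant of the 4, with 300, 335, 291 and 423 normalized counts in DMSO florets and 241, 243 and 188 in EBR florets, and it had the smallest fold change among the 47 (log2 difference -0.58, SE 0.13, adjusted p = 0.0357). TraesCS3D03G0941100.1 had 6.66, 17.1, 17.8 and 10.9 after DMSO and 2.55, 2.68 and 0 after EBR (log2 difference -2.496, SE 0.54, adjusted p = 0.0248). TraesCS2B03G0681000.1 had 7.49, 12.8, 10.4 and 1.56 after DMSO and 0, 0.89 and 0 after EBR (log2 difference -2.63, SE 0.59, adjusted p = 0.0389), and its correlation with the set was 0.68. These 3 calls ended without EBR replicate 3, and each also ended without DMSO replicate 2.

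**Figure D2:**
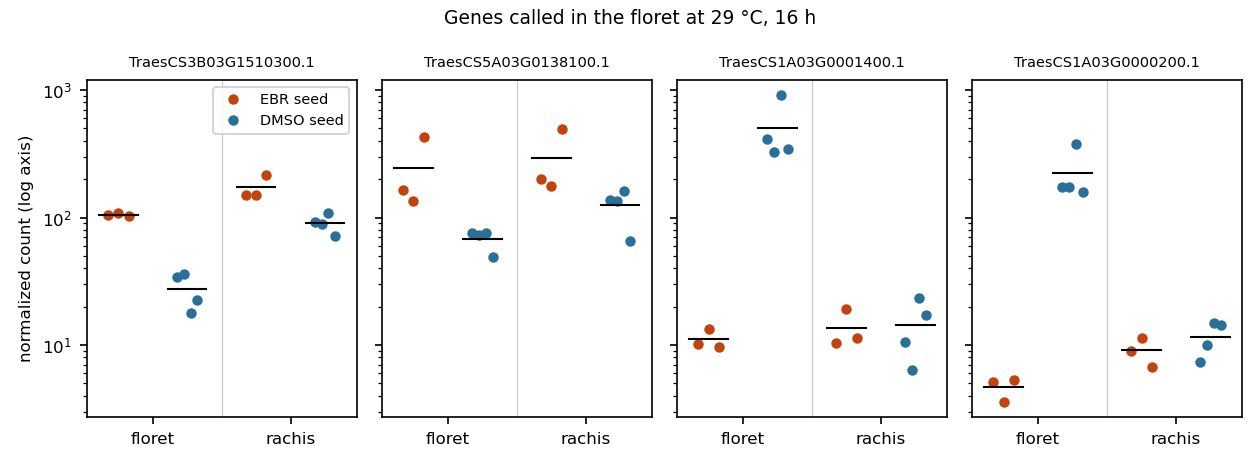
Normalized counts (log axis) of the 4 floret genes taken by the naming rule, with a point for each EBR and DMSO library at 29 °C and 16 h and a bar at the mean. The 2 genes of chromosome 1A differ in the floret and overlap in the rachis, and for TraesCS3B03G1510300.1 and TraesCS5A03G0138100.1 every EBR library is above every DMSO library in both tissues.

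In the rachis, 0 of 38883 genes were called (0% of the genes tested) by limma, with the lowest adjusted p at 0.0602, while 4772 had an unadjusted p under 0.05. The 3 EBR libraries did not overlap the 4 DMSO libraries for 17.15% of the genes tested, 3664 with EBR above and 3004 with EBR below. Those 4772 genes are 12.3% of the genes tested, beside 5% expected by chance, and without EBR replicate 3 the share was 4.13% (1602 genes), with 0 genes called. Leaving out EBR replicate 2 in its place gave 47 calls. On the whole reads edgeR called 2 rachis genes, both higher after EBR, which are named here after their values were seen.

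TraesCS5B03G1016400.1 had 83.6, 90.2, 91.4 and 89.3 normalized counts in DMSO rachises and 203, 152 and 252 in EBR rachises. The groups did not overlap, and the 4 DMSO values were close together (edgeR adjusted p = 0.0421, limma log2 difference 1.15, SE 0.22, adjusted p = 0.0602). TraesCS3A03G0503100.1 had 106, 124, 115 and 98.8 after DMSO and 205, 183 and 225 after EBR (edgeR adjusted p = 0.0421, limma log2 difference 0.88, SE 0.17, adjusted p = 0.0602). In the floret the same genes overlapped between treatments, with 163 to 249 after DMSO and 202 to 390 after EBR for the first and 161 to 232 and 142 to 251 for the second.

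Floret and rachis were then compared directly, by the difference of their EBR effects. Of 40613 genes, 11 were called (0.0271%), all with a more negative EBR effect in the floret, and all 11 are in the co-varying set. TraesCS1A03G0001400.1 differed by -5.26 on the log2 scale (SE 1.02, adjusted p = 0.0184). TraesCS1A03G0002400.1 had 146, 120, 283 and 109 normalized counts in DMSO florets and 4.25, 2.68 and 3.54 in EBR florets, against 6.38 to 11.6 and 6.46 to 10.5 in the rachis, and its effects differed by -5.10 (SE 1.07, adjusted p = 0.0257). The groups were apart in the floret and overlapped in the rachis. Floret and rachis of a head come from 1 plant and deviated together (correlation of deviations 0.16 to 0.63 in all 7 plants). Leaving out single plants gave 0 to 7 calls, with 1 left without EBR replicate 3. With the plant as a block 0 genes were called (1857 had an unadjusted p under 0.05), as with edgeR and no block (0 genes, 1224 with an unadjusted p under 0.05).

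Across genes the differences of the tissues were correlated. Over the 37058 genes tested in both, the EBR minus DMSO differences of floret and rachis had a Pearson correlation of 0.72 across genes and the same sign for 73.9% of genes, or 0.56 and 65.4% over 36970 genes without EBR replicate 3. This is a description: both tissues come from the same 7 plants, and genes are not independent replicates.

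EBR and DMSO heads were also placed along the main axis of variation between heads of the same group. This axis was set from the libraries of all other groups, without the 3 plants that went against their tissue labels, and its share of within-group variation was 28.6% for florets and 30.6% for rachises, beside 7.79% and 6.59% for the next axis. Scores are in units of the SD over all libraries of a tissue. EBR florets scored 0.39, 0.37 and 1.70, the last in replicate 3, and DMSO florets -0.03, -0.77, -0.27 and -1.03. EBR rachises scored 0.23, 0.21 and 1.13 and DMSO rachises -0.31, -0.42, -0.03 and -0.89. All EBR heads were above all DMSO heads in both tissues, and EBR replicate 3 was the farthest out. The means differed by 1.34 for florets and 0.94 for rachises (exact two-sided permutation test over 3 and 4 libraries, p = 0.0571 for each, the smallest value this design allows). Leaving out EBR replicate 3 gave 0.90 and 0.63 (exact p = 0.133 for each, the smallest for 2 and 4 libraries).

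Genes that rise along this axis had higher levels in the EBR heads. The mean log2 level of the 500 floret genes that rise most was 4.13, 2.09, 3.78 and 1.78 in the DMSO florets and 5.29, 5.34 and 6.77 in the EBR florets, without overlap. Of the 500, 499 had a positive difference, as had 52.9% of all floret genes, the median was 2.58 (all genes 0.03) and 1 was called (0.2%, beside 0.123% of all genes). The 500 floret genes that fall most had 4.53, 4.98, 4.73 and 5.38 after DMSO and 4.31, 4.30 and 3.18 after EBR, with a median difference of -0.99. In the rachis the medians of the corresponding lists were 2.02 and -0.64. Leaving out EBR replicate 3 moved the floret medians to 2.16 and -0.58 and the rachis medians to 1.41 and -0.34. The axis and seed treatment cannot be told apart within these 7 plants.

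**Figure D3:**
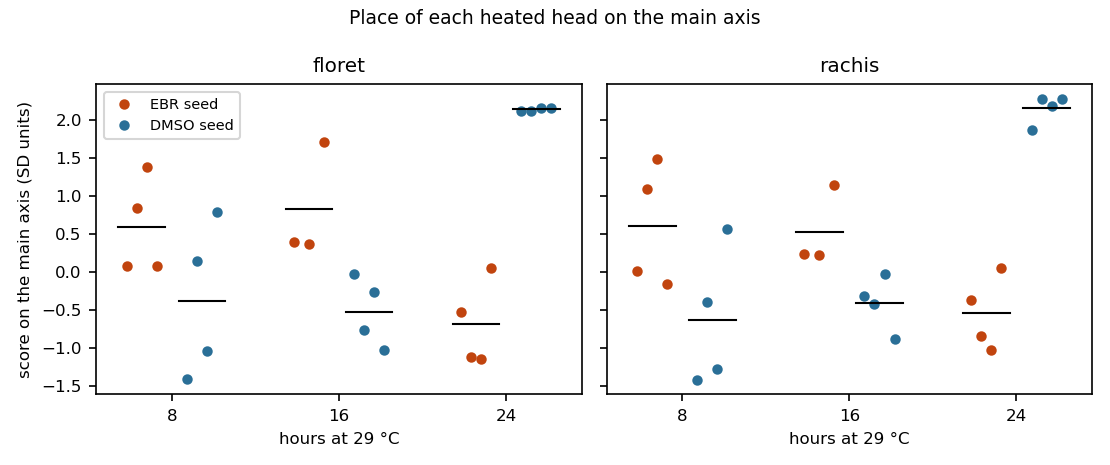
Score of each library on the main axis (vertical axis, SD units) by hours at 29 °C and seed treatment, for floret and rachis, with a bar at each mean. At 16 h the EBR heads lie above the DMSO heads, and at 24 h the DMSO heads lie above all others, between 2.11 and 2.16 in the floret and between 1.87 and 2.28 in the rachis.

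Gene groups taken from other libraries placed this difference among those of heat, time and later EBR effects. Heat-raised genes were those called higher at 29 °C than at 22 °C at 8 h and at 24 h after both seed treatments, and heat-lowered genes the reverse. Of 121 heat-raised floret genes 0 were called at 16 h (0.123% of all genes), 80 had a positive EBR minus DMSO difference, and the median was 0.06. Their mean log2 level was 8.90, 8.88, 8.86 and 8.81 in DMSO florets and 8.89, 8.87 and 9.01 in EBR florets, which overlapped. Leaving out EBR replicate 3, 69 of the 121 heat-raised genes had a positive difference and the median was 0.04. In the rachis 75 such genes had a median of 0.01 and 0 calls, and the sign of that median turned without EBR replicate 3 (-0.004) and under rescaling by trimmed mean of M-values (-0.0004).

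Of 150 heat-lowered genes in the floret 0 were called, 25 had a positive difference and the median was -0.13. Their mean log2 level was 9.34 to 9.44 in DMSO florets and 9.21 to 9.32 in EBR florets, without overlap. In the rachis 59 heat-lowered genes gave a median of -0.11, 0 calls and 11 positive differences, with 9.18 to 9.24 after DMSO and 9.05 to 9.12 after EBR, also without overlap. Without EBR replicate 3 the medians were -0.08 and -0.11. Genes that changed over the 4 times in DMSO heads at 22 °C numbered 11906 in the floret, of which 4 were called higher and 41 lower (0.378% of the list, beside 0.123% of all genes), with a median difference of 0.11. In the rachis there were 16135 such genes, 0 calls and a median of 0.02. The floret and rachis medians of these lists were 0.04 and 0.01 without EBR replicate 3. Both lists use DMSO heads at 22 °C and 0 h, of which 1 plant went against its tissue labels. Of all 42 lower floret calls 38 are in the co-varying set, so most of the 41 in the floret list are its members. In DMSO florets at 22 °C that set stood at 3.09, 6.775, 6.516 and 3.13 at 0, 8, 16 and 24 h. Those libraries carry the numbers 1, 15, 14 and 8.

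Over chromosomes, 17 of the 42 lower floret calls were on 1A, out of 2228 genes tested there (0.763%), and 7 were on 1B, out of 2348 (0.298%), beside 0.11% of all genes. By subgenome, 25 of 12947 genes tested in A (0.193%), 10 of 12915 in B (0.0774%) and 7 of 12458 in D (0.0562%) were called lower. All lower calls on 1A and 1B are in the co-varying set, which was defined by correlation with genes of 1A. The 4 lower calls outside that set were on 2B, 3D, 4B and 5A. These shares therefore mostly restate the set.

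Genes that differ between tissues in DMSO heads at 22 °C and 8 h were followed as well, since the lists planned from 0 h held only 0 floret-enriched genes and 1 rachis-enriched gene. The 60 floret-enriched genes outside the co-varying set had median differences of -0.09 (floret) and 0.16 (rachis, 57 tested). The 198 rachis-enriched genes had 0.31 in the floret (175 tested) and -0.07 in the rachis (197 tested), with 0 calls in either tissue. Leaving out EBR replicate 3, the floret medians were 0.001 for floret-enriched and 0.21 for rachis-enriched genes. The rachis medians were then 0.25 and -0.01.

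Earlier, at 8 h of 29 °C, EBR heads had higher mean scores on the axis than DMSO heads, but the groups overlapped. EBR florets scored 0.07, 0.84, 1.38 and 0.08 and DMSO florets -1.40, 0.14, -1.04 and 0.78, with means of 0.59 and -0.38 (exact two-sided permutation test, p = 0.229). The rachis means were 0.61 and -0.63, with EBR from -0.16 to 1.49 and DMSO from -1.42 to 0.56 (exact two-sided permutation test, p = 0.114). At that time 49 floret genes (0.128%) were called, 44 higher (0.115%) and 5 lower (0.013%) in EBR heads, and 1673 rachis genes (4.3%), 862 higher (2.22%) and 811 lower (2.09%). At 16 h, when 0.123% of all floret genes and 0% of rachis genes were called, 0 of these were called in the same tissue. The 44 floret genes higher at 8 h had mean log2 levels at 16 h of 6.84, 6.76, 6.96 and 6.42 in DMSO florets and 7.06, 6.999 and 7.599 in EBR florets, without overlap, and 36 had a positive difference (median 0.40). Of the 862 higher rachis genes 714 had a positive difference at 16 h (median 0.26), and of the 811 lower ones 95 did (median -0.21). The 3 medians were 0.24, 0.17 and -0.14 without EBR replicate 3.

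At 24 h of 29 °C the EBR and DMSO heads differed far more, and mostly with the opposite sign. In the floret 25075 genes were called at 24 h (65.4%), 11137 higher (29.1%) and 13938 lower (36.4%) in EBR heads, and 22571 of them (90.0%) had the opposite sign at 16 h, beside 80.6% of all floret genes. Without EBR replicate 3 the shares were 77.5% and 70.2%. Median absolute log2 differences of the 25075 genes were 0.29 at 16 h and 1.01 at 24 h. In the rachis 23554 genes were called (60.6%), 10681 higher (27.5%) and 12873 lower (33.1%), and of these 19488 (82.7%) had the opposite sign at 16 h, beside 73.5% of all rachis genes, with medians of 0.25 and 1.10. The rachis shares without that plant were 73.3% and 66.8%. The scores on the main axis changed sides too: EBR florets had a mean of -0.69 and DMSO florets of 2.13 at 24 h, and the rachis means were -0.55 and 2.15.

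**Figure D4:**
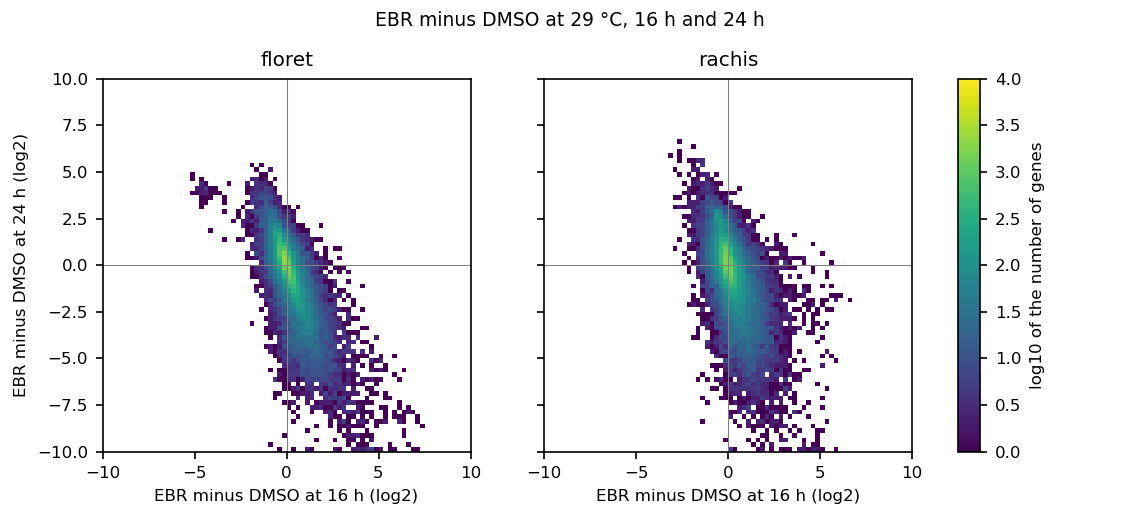
EBR minus DMSO log2 difference of each gene at 16 h (horizontal axis) against 24 h (vertical axis) at 29 °C, as the number of genes per bin, in floret and rachis; values beyond the axis limits are drawn in the outermost bin. The cloud runs from upper left to lower right, with a Pearson correlation across genes of -0.77 for florets and -0.61 for rachises.

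The effect at 24 h minus the effect at 16 h was tested gene by gene, and no library is shared between the times. In the floret 23583 genes differed (61.5%), 10412 (27.2%) with a higher and 13171 (34.4%) with a lower EBR effect at 24 h. In the rachis 21363 differed (54.9%), 9637 higher (24.8%) and 11726 lower (30.2%). Rescaling by trimmed mean of M-values moved the median of all floret genes from -0.11 to 0.03, a shift of 0.14, and the split became 12040 and 11850 for florets and 10661 and 10701 for rachises. The balance of higher and lower genes therefore depends on the scaling. With the axis score of the other tissue as a covariate the counts were 9210 for florets and 2253 for rachises.

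Correlations across genes between the times, given as a description over 38320 floret and 38883 rachis genes, were -0.77 and -0.61 for 16 h against 24 h and 0.64 and 0.52 for 16 h against 8 h. Without EBR replicate 3 they were -0.53 and -0.39 against 24 h and 0.56 and 0.45 against 8 h. The differences at 16 h also correlated with the genes' loadings on the main axis, at 0.78 (floret) and 0.65 (rachis), or 0.69 and 0.53 without that plant.

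Among floret genes with the largest change between the times, TraesCS1A03G0001400.1 turned from low to high after EBR. At 24 h it had 11.96, 12.6, 13.3 and 13.7 normalized counts in DMSO florets and 372, 449, 286 and 405 in EBR florets, the reverse of the order at 16 h. The change in its EBR effect was 10 on the log2 scale (SE 0.91, adjusted p = 3.92e-12, limma), and that of TraesCS1A03G0000200.1 was 9.20 (SE 0.85, adjusted p = 6.44e-12). All 42 genes of the co-varying set were called with a higher EBR effect at 24 h than at 16 h, as were 27.2% of all floret genes. The library numbers changed too, from 9 for EBR and 13 for DMSO at 16 h to 11 and 4 at 24 h.

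TraesCS2D03G0784200.1 was near 0 in every floret at 16 h, with at most 1.79 normalized counts. At 24 h it had 1654, 1077, 974 and 2041 in DMSO florets and 1.76, 0, 0 and 0 in EBR florets (change of the EBR effect -10.49, SE 0.89, adjusted p = 7.49e-13). TraesCS2B03G0929700.1 behaved alike, with at most 1.70 at 16 h, 582 to 1273 in DMSO florets at 24 h and 0 to 2.63 in EBR florets (change -8.85, SE 0.77, adjusted p = 1.35e-12). At 16 h the seed treatments overlapped for both genes, and neither gene was called.

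In the rachis, TraesCS1D03G0567100.1 had 1182, 1671, 1346 and 1893 normalized counts at 16 h after DMSO and 654, 954 and 367 after EBR. At 24 h the order was reversed, with 36.1, 35.5, 29.98 and 42.7 after DMSO and 1392, 1595, 1850 and 1129 after EBR (change 6.61, SE 1.04, adjusted p = 1.25e-06). TraesCS2B03G1405700.1 also had a higher EBR effect at 24 h (change 7.18, SE 1.66, adjusted p = 0.000342), from 194, 368, 279 and 361 after DMSO and 62.0, 143 and 47.3 after EBR at 16 h. With the axis score of the floret as a covariate, the calls of TraesCS1D03G0567100.1 and TraesCS2B03G1405700.1 ended (adjusted p = 0.177 and 0.59, limma).

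TraesCS3B03G0253200.1 moved the other way. It had 13.8, 11.8, 10.8 and 6.65 normalized counts in DMSO rachises and 18.1, 20.0 and 54.1 in EBR rachises at 16 h, and 341, 646, 830 and 918 against 10.6, 6.53, 4.88 and 7.20 at 24 h (change -7.61, SE 1.01, adjusted p = 6.77e-08). TraesCS5D03G0258500.1 had 6.35, 10.02, 17.5 and 5.70 after DMSO and 29.7, 21.9 and 76.6 after EBR at 16 h, and its EBR effect changed by -7.41 (SE 1.32, adjusted p = 9.4e-06). Both were without overlap at 16 h, and neither was called then. With the axis score of the floret as a covariate, the call of the change ended for TraesCS5D03G0258500.1 (adjusted p = 0.389, limma) and stayed for TraesCS3B03G0253200.1.

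The genes called at 24 h, taken as groups, lay on the other side at 16 h. Of the 11137 floret genes higher with EBR at 24 h, 1099 had a positive difference at 16 h (median -0.23) and 42 were called lower (0.377% of the list called, beside 0.123% of all genes). Of the 13938 lower ones 12466 had a positive difference (median 0.37) and 5 were called higher (0.0359% called). The 42 genes called lower are all the lower floret calls at 16 h, and 38 of them are in the co-varying set. The level of that set differed by -4.12 at 16 h (library numbers 9 for EBR and 13 for DMSO). At 24 h it differed by 3.76 (numbers 11 and 4). Leaving out EBR replicate 3, positive differences numbered 2459 of 11137 and 10405 of 13871. In the rachis the medians were -0.19 for 10681 genes and 0.27 for 12873 genes. Without EBR replicate 3 the floret medians were -0.11 and 0.17 and the rachis medians -0.12 and 0.14.

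**Figure D5:**
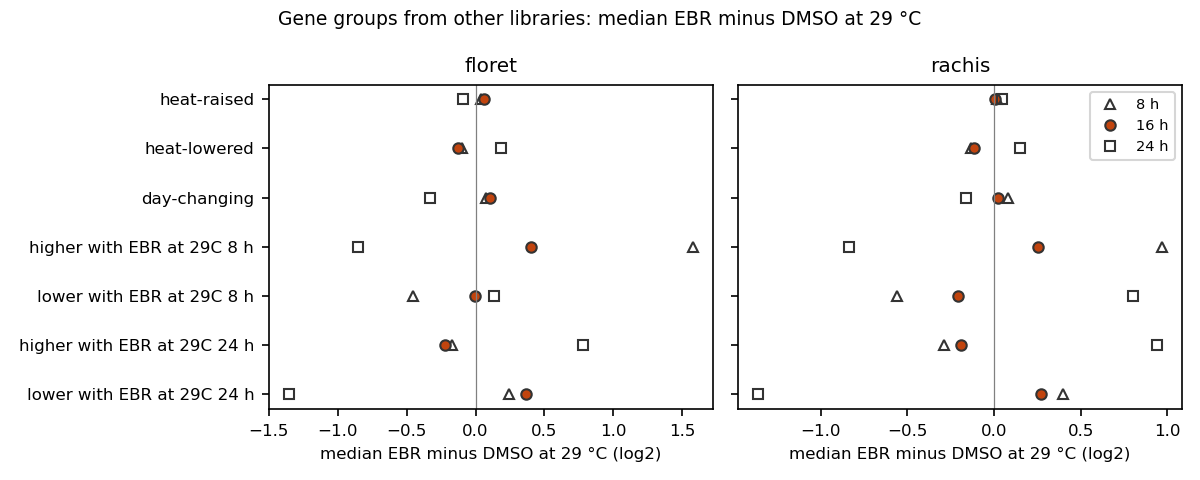
Median EBR minus DMSO log2 difference (horizontal axis) at 8, 16 and 24 h of 29 °C for 7 gene groups in floret and rachis; for groups chosen at 8 or 24 h, the marker of that time is what chose them. At 16 h the floret medians are 0.06 for heat-raised and -0.13 for heat-lowered genes, and -0.23 and 0.37 for genes higher and lower with EBR at 24 h.

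Heads kept at 22 °C and sampled at 16 h address whether the difference depends on temperature. At 22 °C 50 floret genes were called (0.13%), 10 higher (0.0261%) and 40 lower (0.104%) in EBR heads, and 0 rachis genes (0%). The co-varying set had a difference of -3.08 at 22 °C (library numbers 2 for EBR and 14 for DMSO), beside -4.12 at 29 °C (numbers 9 and 13). Of its members 0 were called as differing between the temperatures, which does not show that the effects are equal. The number and the condition cannot be told apart, and 1 of the 4 EBR florets at 22 °C went against its tissue label. The EBR effect at 29 °C minus that at 22 °C was called for 190 floret genes (0.496%), 171 higher (0.446%) and 19 lower (0.0496%) at 29 °C. Without the 3 plants that went against their tissue labels, 1 of which is an EBR head of 22 °C, 0 were called. With the axis score as a covariate 0 were called too. The same plants, those with both tissues, also gave 0 without the covariate, so this does not bear on the axis. Leaving out single libraries of the 29 °C groups gave 0 to 674 calls, with 0 without EBR replicate 3. In the rachis 0 genes were called (0%) by limma, 6768 had an unadjusted p under 0.05, and edgeR called 32 (31 higher and 1 lower).

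TraesCS1A03G0694000.1 had 35.8, 29.1, 37.6 and 10.2 normalized counts in DMSO florets and 68.0, 64.2 and 204 in EBR florets at 29 °C, against 78.2, 70.98, 38.2 and 29.3 and 23.4, 45.3, 16.96 and 25.5 at 22 °C. The groups did not overlap at 29 °C and overlapped at 22 °C (difference of the effects 2.80, SE 0.70, adjusted p = 0.0473). At 29 °C alone this gene was not called (adjusted p = 0.0995, limma). TraesCS3B03G1510300.1, higher with EBR at 29 °C, had 156, 140, 67.8 and 52.6 after DMSO and 40.3, 63.2, 122 and 38.3 after EBR at 22 °C, which overlapped (difference 2.62, SE 0.59, adjusted p = 0.0373).

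Among genes with a lower EBR effect at 29 °C, TraesCS5A03G0849300.1 had 66.6, 70.2, 58.5 and 96.97 in DMSO florets and 54.4, 38.4 and 17.7 in EBR florets at 29 °C (difference of the effects -1.58, SE 0.39, adjusted p = 0.0473). TraesCS5D03G0533400.1 had 255, 268, 246 and 219 against 182, 188 and 123 (difference -0.97, SE 0.22, adjusted p = 0.0378). At 29 °C alone neither gene was called (log2 differences -1.08 and -0.61, adjusted p = 0.0917 and 0.0974, limma). At 22 °C the log2 differences were 0.50 and 0.36, also not called. None of the 4 named calls between temperatures was left without the 3 plants.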

How the data were processed

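RNA was measured in floret and rachis of wheat heads by sequencing of poly(A) libraries. The authors deposited 1 table of signal per gene and library, which its name calls normalized counts. Each library's values were whole reads divided by a single factor for 100% of values (tolerance 0.01). The submitters' processing notes name STAR, featureCounts, DESeq2, Trimmomatic 0.36, MultiQC and FastQC, with no role or order; the build is not stated in the labels. Of 55578 entries 1 was incomplete and left out. Of 122 samples 121 have a column.

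In R 4.3.3, limma 3.58.1 was run on log2(normalized count + 1), with a mean for each group, a trend in the variance and the spread shared by all groups of a tissue. Genes under 10 in all but 2 or fewer libraries were left out. Tests were two-sided. Calls are genes with an adjusted p under 0.05 (Benjamini-Hochberg adjustment over the whole table tested). Differences on this scale understate changes of low genes. Values beside a limit from 3 reads cover counting error only. edgeR 4.0.16 (quasi-likelihood test) on the whole reads was an alternative, beside other pseudocounts, filters and scaling, fits of the compared groups only, single libraries left out, a replicate block and the axis score as covariate. The test was also run on simulated counts, drawn independently for each gene and library. These held no axis shared between heads and no plant like EBR replicate 3. They therefore do not bear on how the calls depend on either.

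Named genes were, per comparison and direction, the 2 with the largest log2 difference among called genes with a mean of at least 50, no overlap of EBR and DMSO libraries (between tissues, temperatures or times, where the EBR difference was larger) and a highest value + 1 under 4 times the lowest value + 1 within each group. The members and lists were chosen with earlier results of these data known. Libraries with the same replicate number after EBR and DMSO did not deviate together (correlations -0.17 to 0.12), so the numbers were not taken as pairs. Floret and rachis of 1 plant did (0.16 to 0.63).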

Additional observations from a re-analysis of the deposited data

Results flagged for a closer look

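In 77 groups of 4 libraries checked, 5 had a library far from the other 3, and chance flags about 1 in 20 groups. The 77 covered the named genes, the main axis scores, the co-varying set and the gene groups. All 5 were for named genes, so the share among named genes alone is higher. The EBR groups at 29 °C and 16 h hold 3 libraries and were not checked, so EBR replicate 3 could not be flagged here. TraesCS5A03G0138100.1 was lowest in DMSO floret replicate 4 at 29 °C and 16 h, at 49.27 normalized counts. DMSO floret replicate 3 was highest for TraesCS1A03G0001400.1, at 909.3, and for TraesCS1A03G0000200.1, at 380.0. TraesCS2D03G0784200.1 had 1.756 in EBR floret replicate 1 at 24 h and 1.666 in DMSO floret replicate 1 at 16 h, where the other libraries of each group were at 0.

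Other results were flagged because EBR effects differed between tissues, temperatures or times by a test of the difference (limma). Between floret and rachis these were 11 genes, with TraesCS1A03G0001400.1 at -5.26 and TraesCS1A03G0002400.1 at -5.10 on the log2 scale. Between 29 °C and 22 °C in the floret they were 190 genes, with TraesCS1A03G0694000.1 at 2.80, TraesCS3B03G1510300.1 at 2.62, TraesCS5A03G0849300.1 at -1.58 and TraesCS5D03G0533400.1 at -0.97. Between 24 h and 16 h in the floret they were 23583 genes, with TraesCS1A03G0001400.1 at 10, TraesCS1A03G0000200.1 at 9.20, TraesCS2D03G0784200.1 at -10.49 and TraesCS2B03G0929700.1 at -8.85. In the rachis they were 21363 genes, with TraesCS2B03G1405700.1 at 7.18, TraesCS1D03G0567100.1 at 6.61, TraesCS3B03G0253200.1 at -7.61 and TraesCS5D03G0258500.1 at -7.41.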

How the results depend on the processing

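Beside 47 floret calls, edgeR gave 779 and, without EBR replicate 3, 30. A mean of at least 50 gave 28, the compared groups alone gave 91, and leaving out the co-varying set, however built, gave 1. Leaving out 1 library gave 36 to 466. Beside 0 rachis calls, edgeR gave 2, a pseudocount of 5 gave 3, no filter gave 21, a mean of at least 50 gave 2, the compared groups alone gave 45, and leaving out the 3 plants against their tissue labels gave 2. Leaving out 1 rachis library gave 0 to 47. Beside 11 genes differing between tissues, edgeR gave 0, a pseudocount of 5 gave 21, the compared groups alone gave 23, and leaving out 1 plant gave 0 to 7. With the plant as a replicate block, with or without the 3 plants, it was 0. Beside 190 floret genes differing between temperatures, edgeR gave 1062 (0 without EBR replicate 3), a pseudocount of 5 gave 116, no filter gave 54 and a mean of at least 50 gave 56. The compared groups alone, leaving out the 3 plants, the axis covariate and the same plants without the covariate each gave 0, and leaving out 1 library gave 0 to 674. In the rachis edgeR gave 32, no filter gave 1, and leaving out 1 library gave 0 to 3. For 24 h against 16 h, the axis covariate gave 9210 floret and 2253 rachis genes, and leaving out 1 library gave 20437 to 23377 and 18371 to 21143. The cause of these changes was not tested. A replicate block on the label numbers gave 45 floret and 0 rachis calls and 38 genes between temperatures in the floret. The difference along the main axis was 1.34 and 0.93 when all libraries set the axis. Leaving out EBR replicate 3 gave 0.90 and 0.63.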
